A study of Mus musculus with 6 samples.

Results

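The Cd209 lectin family of the mouse is a cluster of related genes on chromosome 8, of which Cd209a, Cd209b, Cd209c, Cd209d and Cd209e were examined in conventional type 1 dendritic cells (cDC1s). The 5 genes were taken by name from the 54532 gene identifiers of the deposited tables, and they were chosen by their fl/fl and Δ/Δ levels in these same libraries. Their levels and fold changes are therefore given as a description, without a test. RNA was sequenced from cDC1s that had been grown for 8 days from bone marrow with 80 ng/mL FLT3L, a cytokine that drives dendritic cell development, and then sorted as CD24+ CD11c+ cells lacking B220, CD115 and CD172a. The control group, c-Jun/JunB fl/fl, had 3 libraries (here fl/fl 1 to 3), and the deleted group, whose label adds Itgax-Cre to the same floxed alleles and which is here called Δ/Δ, likewise had 3 (Δ/Δ 1 to 3). Mice of both groups carried loxP-flanked Jun and Junb alleles on a mixed 129 Sv × C57BL/6 background, and in the Δ/Δ group Cre recombinase under the Itgax (CD11c) promoter deletes both genes, so that cells which have not yet switched on CD11c keep them.

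Human DC-SIGN, the product of CD209, is a transmembrane C-type lectin that binds mannose- and fucose-bearing glycans of microbes and host cells in the presence of calcium, and it hands its cargo to the endocytic pathway. In the mouse the single human gene corresponds to a family of paralogs, called SIGN-related genes, which share the carbohydrate-recognition domain and differ in sugar preference and in the cells that express them. Cd209a marks subsets of cDC2s and monocyte-derived dendritic cells, whereas Cd209b (SIGNR1) is best known from marginal zone and medullary macrophages.

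All 5 genes lie on the minus strand of chromosome 8 within 211 kb of the GRCm38 build. In order of position they are Cd209a (3743397 to 3748984), Cd209e (3847965 to 3854309), Cd209d (3871824 to 3878555), Cd209b (3917655 to 3926844) and Cd209c (3940222 to 3954746). The family resemblance is shown by a 75-base stretch, as long as a sequencing read, from the last coding exon of each gene. Letters in capitals are bases that differ from the most common base of their column over the 5 genes. Where bases were equally common, the one first in the alphabet was left in lower case.
Cd209a: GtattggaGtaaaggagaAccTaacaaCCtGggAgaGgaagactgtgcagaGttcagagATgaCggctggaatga
Cd209b: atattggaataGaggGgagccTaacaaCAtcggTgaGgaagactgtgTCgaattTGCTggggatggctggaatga
Cd209c: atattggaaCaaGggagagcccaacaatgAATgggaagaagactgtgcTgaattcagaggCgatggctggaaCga
Cd209d: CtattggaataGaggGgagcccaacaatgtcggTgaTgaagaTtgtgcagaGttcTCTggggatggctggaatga
Cd209e: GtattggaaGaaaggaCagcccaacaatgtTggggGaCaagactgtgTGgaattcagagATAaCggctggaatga
Of the 75 columns, 44 were identical in all 5 genes and 31 varied. Between pairs of genes the stretch differed at 11 columns (Cd209b and Cd209d) to 22 columns (Cd209b and Cd209e). Bases 17 to 25 of the stretch are 3 codons at the place where mannose-binding C-type lectins hold a sugar-contacting triplet of residues. They read gaacctaac in Cd209a, gagcctaac in Cd209b, gagcccaac in both Cd209c and Cd209d, and cagcccaac in Cd209e. The stretches are at 3744151 to 3744225 for Cd209a, 3918744 to 3918818 for Cd209b, 3940347 to 3940421 for Cd209c, 3872027 to 3872101 for Cd209d and 3849154 to 3849228 for Cd209e, in exons of GENCODE release M21.

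Over whole coding sequences the genes were 65.2 to 74.0% identical in 10 pairwise alignments. The longest run of coding bases shared exactly by any pair was 26 (Cd209b and Cd209c). No 75-base window of a Cd209a, Cd209b, Cd209d or Cd209e transcript occurred in a transcript of another gene. For Cd209c, 196 of 2195 windows (8.93%) occurred elsewhere, none of them in a Cd209 gene. The most alike 75-base windows of 2 members still differed at 7 bases (Cd209b and Cd209d), and for Cd209c and Cd209e at 11 bases.

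The DNA before the transcription starts was compared for the genes that carried reads and for Cd209b, which carried none. Printed are the stretches upstream of the start for Cd209e, the member with the largest fold change, for Cd209a, the most abundant, and for Cd209b. Sequences were from RefSeq on GRCm38.p6, in the direction of transcription. They cover 3854310 to 3854536, 3748985 to 3749234 and 3926845 to 3927091, minus strand, and capitals mark matches to CCGGAAG or ATAAAAG on either strand.
Cd209e: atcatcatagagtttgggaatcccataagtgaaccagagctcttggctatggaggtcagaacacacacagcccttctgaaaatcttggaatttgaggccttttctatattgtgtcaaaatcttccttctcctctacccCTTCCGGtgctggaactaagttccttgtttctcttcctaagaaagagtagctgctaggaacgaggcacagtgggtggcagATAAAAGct
Cd209a: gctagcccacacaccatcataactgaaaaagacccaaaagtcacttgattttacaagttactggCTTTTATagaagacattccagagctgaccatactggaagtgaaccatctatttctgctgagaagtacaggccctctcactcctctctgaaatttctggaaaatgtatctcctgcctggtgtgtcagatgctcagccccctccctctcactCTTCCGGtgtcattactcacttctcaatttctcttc
Cd209b: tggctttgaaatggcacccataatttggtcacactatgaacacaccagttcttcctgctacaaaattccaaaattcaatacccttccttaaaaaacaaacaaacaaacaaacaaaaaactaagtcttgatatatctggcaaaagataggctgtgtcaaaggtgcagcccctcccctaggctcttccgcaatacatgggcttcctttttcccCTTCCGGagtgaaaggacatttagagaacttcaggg
The first of these, the core to which ETS factors bind, was found in the RefSeq window (250 bases before to 50 after the start) of Cd209a, Cd209b and Cd209e, and in 8.86% of 32851 such windows. The second, a TATA-like run, was found in Cd209a, Cd209b, Cd209c and Cd209e and in 5.42% of all windows. Both were picked after the sequences had been read. The AP-1 site TGAGTCA was present in 5.20% of all windows and in none of the 5 members. The cyclic AMP element TGACGTCA (1.79% of windows) and the PU.1 site GAGGAAGT (3.20%) had no match in the members either, nor had an interferon response element. The 2 further paralogs Cd209f and Cd209g each held 1 AP-1 site, and neither had a read in any library. A match is a match of letters only, and these windows say nothing about elements elsewhere.

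The libraries held 21693217 to 26788296 reads on genes. Jun was at 62.2 ± 9.26 CPM (reads per 1000000 on genes; SD, n = 3) in fl/fl and at 51.0 ± 8.46 in Δ/Δ libraries, with overlapping values (log2 fold change -0.29, SE 0.15, edgeR adjusted p = 0.345). Junb was at 334 ± 71.5 CPM in fl/fl against 164 ± 50.9 in Δ/Δ libraries, a log2 fold change of -1.02 (SE 0.25, edgeR adjusted p = 0.0729) without overlap. Counts over the whole gene do not show how many cells lost the floxed part. Genes counted as called where edgeR's quasi-likelihood model, fitted to 12894 genes, gave a Benjamini-Hochberg adjusted p below 0.05 together with a log2 fold change of 1 or more, up or down. In bulk RNA, fewer cells with a transcript and less of it per cell cannot be told apart.

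Reads were found on 4 of the 5 members, and each of these was higher in every Δ/Δ library than in any fl/fl library. Cd209e differed most, followed by Cd209d and Cd209c at near-equal fold changes and by Cd209a, the member with most reads. Cd209a, Cd209c and Cd209e met the limits of a call and Cd209d did not. Of all tested genes, 13.7% lay higher in every Δ/Δ library and 0.993% were called higher. The same contrast had picked the members, so nothing is read from these counts.

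**Figure D1:**
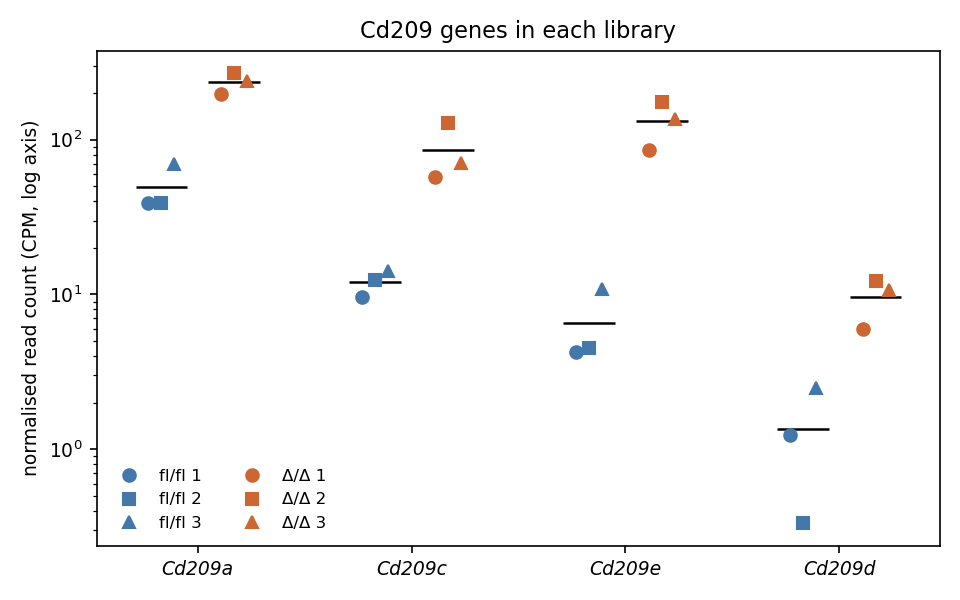
Normalised read counts (CPM, log axis) of the 4 Cd209 genes with reads in 3 fl/fl (blue) and 3 Δ/Δ (orange) libraries; each symbol is 1 library and the bar is the mean of 3. Every Δ/Δ symbol lies above every fl/fl symbol, with Cd209e at 4.24 to 10.9 CPM in fl/fl against 86.1 to 175 CPM in Δ/Δ libraries.

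Cd209e (ENSMUSG00000040197.4), which encodes SIGNR4, had 110, 121 and 257 reads in fl/fl 1, 2 and 3. In Δ/Δ 1, 2 and 3 it had 2123, 3757 and 3088 reads. The lowest Δ/Δ library was 7.90 times the highest fl/fl library in CPM, and fl/fl 3 stood above the other 2 fl/fl libraries. On average the level went from 6.54 ± 3.78 CPM (SD, n = 3) to 132 ± 44.7 CPM, a 20.2-fold ratio of means. The fitted log2 fold change was 4.35 with a standard error of 0.44, rank 27 from the top among 12894 genes.

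Cd209c (ENSMUSG00000040165.14) encodes SIGNR2. Its reads numbered 250, 336 and 335 in the fl/fl and 1417, 2735 and 1614 in the Δ/Δ libraries. The fl/fl libraries lay close together, whereas Δ/Δ 2 stood well above the other 2 Δ/Δ libraries. The mean level was 12.1 ± 2.31 CPM in fl/fl against 85.4 ± 37.2 CPM in Δ/Δ cDC1s, 7.06-fold, and the lowest Δ/Δ library was 4.05 times the highest fl/fl library. The log2 fold change was 2.82 (SE 0.32), rank 61 of 12894. Without fl/fl 1 or fl/fl 2 it fell outside the limits of a call, at log2 fold changes of 2.68 and 2.84.

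Cd209a (ENSMUSG00000031494.7) encodes the paralog known as CIRE or SIGNR5. It had 1015, 1054 and 1632 reads in the fl/fl libraries and 4831, 5744 and 5427 in the Δ/Δ libraries. As for Cd209e, fl/fl 3 was the highest of its group, at 69.2 CPM against 39.1 CPM in each of the others. The mean level was 49.2 ± 17.4 CPM in fl/fl against 234 ± 36.2 CPM in Δ/Δ cDC1s, 4.77-fold, with the lowest Δ/Δ library 2.83 times the highest fl/fl library. The log2 fold change was 2.25 (SE 0.25), rank 88 of 12894.

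Cd209d (ENSMUSG00000031495.8) encodes SIGNR3, a lectin of dermal and other tissue macrophages that recognises mycobacteria. It was the lowest of the 4, with 32, 9 and 59 reads in the fl/fl libraries and 147, 262 and 242 in the Δ/Δ libraries. Its fl/fl values spread most, from 0.334 CPM in fl/fl 2 to 2.50 CPM in fl/fl 3, and the lowest Δ/Δ library was 2.38 times the latter. Means were 1.36 ± 1.09 and 9.62 ± 3.26 CPM, 7.09-fold, and the log2 fold change was 2.83 with the largest standard error of the family, 0.62. As a description only, it lay outside the limits of a call in edgeR with the filter on low counts and inside them without Δ/Δ 1, where the log2 fold change was 3.09.

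Cd209b (ENSMUSG00000065987.12) had no read in any of the 6 libraries. For 3 reads pooled over all 6 libraries, the limit that a count of 0 allows is 0.0207 CPM. These limits cover counting error only, since PCR copies were not told apart. Cd209b could not be tested and no fold is given.

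The 4 genes with reads were highest in the same library of each genotype. In fl/fl cDC1s, fl/fl 3 was the highest library for each of them, and in Δ/Δ cDC1s Δ/Δ 2 was the highest and Δ/Δ 1 the lowest for each. The lowest fl/fl library was fl/fl 2 for Cd209a and Cd209d and fl/fl 1 for Cd209c and Cd209e. The 5 members together held 54.3, 56.4 and 96.8 CPM in the fl/fl libraries and 346, 583 and 457 CPM in the Δ/Δ libraries. The sum was thus 69.2 ± 24.0 CPM against 462 ± 119 CPM, 6.68-fold. Without Cd209a, which dominates it, the sum was 20.0 ± 6.68 against 227 ± 83.2 CPM.

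The family did not keep its composition between the genotypes. Cd209a supplied 72.1, 69.3 and 71.5% of the family's reads in the fl/fl libraries and 56.7, 46.0 and 52.3% in the Δ/Δ libraries. Cd209e supplied 7.82, 7.96 and 11.3% in fl/fl and 24.9, 30.1 and 29.8% in Δ/Δ libraries. The groups did not overlap for either share, and the means moved from 71.0 ± 1.46 to 51.7 ± 5.41% for Cd209a and from 9.01 ± 1.95 to 28.3 ± 2.89% for Cd209e. The share of Cd209c overlapped between the genotypes, at 14.7 to 22.1% in fl/fl and 15.6 to 21.9% in Δ/Δ libraries. The share of Cd209d also overlapped, at 0.592 to 2.58% and 1.73 to 2.33%.

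**Figure D2:**
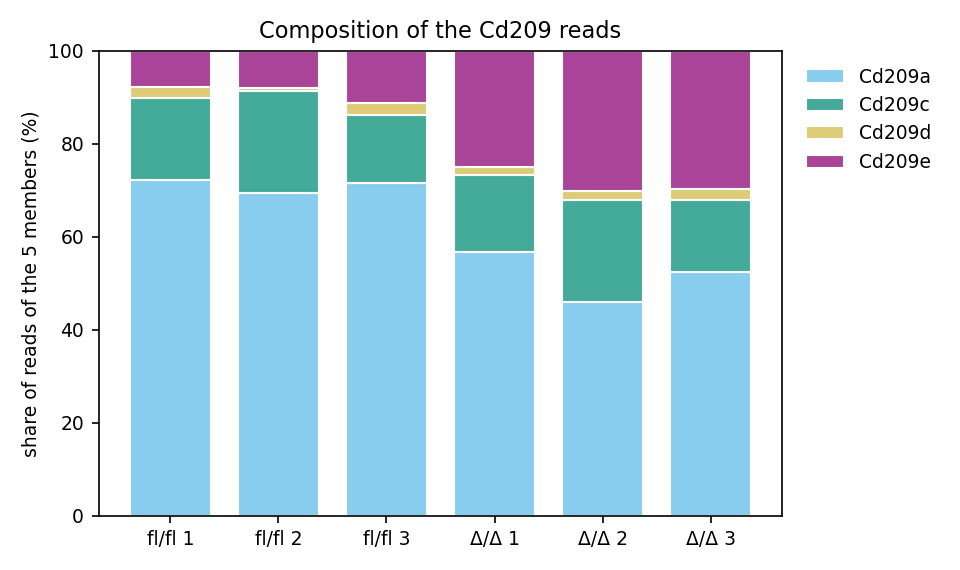
Share of each gene in the reads of the 5 members (%), stacked for each of the 6 libraries; Cd209b has no reads. The Cd209e part is 7.82 to 11.3% in fl/fl and 24.9 to 30.1% in Δ/Δ libraries, and the Cd209a part is correspondingly smaller in the latter.

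Levels of different genes can be compared only per length, here as CPM per kilobase (kb) of exon. On this scale Cd209a was the highest member in every library, at 31.1 ± 11.0 in fl/fl and 148 ± 22.9 in Δ/Δ cDC1s. In fl/fl cDC1s Cd209c followed at 6.06 ± 1.15, then Cd209e at 3.63 ± 2.10 and Cd209d at 1.48 ± 1.19. The ranges of Cd209c and Cd209e overlapped there, as did those of Cd209e and Cd209d. In Δ/Δ cDC1s Cd209e was second at 73.5 ± 24.8, ahead of Cd209c at 42.8 ± 18.6 and Cd209d at 10.5 ± 3.55. The ranges of Cd209e and Cd209c overlapped across Δ/Δ libraries, and those of Cd209a and Cd209d lay apart from their neighbours.

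Within each library, the order of Cd209e and Cd209c was the reverse in the other genotype. The ratio of Cd209e to Cd209c per kb was 0.488, 0.399 and 0.850 in fl/fl 1, 2 and 3, below 1 in each. It was 1.66, 1.52 and 2.12 in Δ/Δ 1, 2 and 3, above 1 in each. Relative to Cd209a, Cd209e went from 0.0952 to 0.138 in fl/fl to 0.386 to 0.575 in Δ/Δ libraries. The ratio of Cd209c to Cd209a overlapped, at 0.163 to 0.253 and 0.233 to 0.377.

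Set among the 12887 tested genes with a known length, Cd209e moved from percentile 38.8 of the mean level per kb in fl/fl to percentile 95.7 in Δ/Δ cDC1s. Cd209c moved from percentile 51.0 to 91.7 and Cd209d from 24.1 to 65.1. Cd209a was already at percentile 87.9 in fl/fl cDC1s and was at 98.0 in Δ/Δ cDC1s. The other 3 genes were therefore in the middle or lower part of the range of tested genes in fl/fl cDC1s.

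The nearest relatives and the genes around the cluster were not used to choose the members and were tested. Cd209f and Cd209g, paralogs farther along the chromosome, had no read in any library. Clec4g (LSECtin), a C-type lectin of liver and node sinusoids beside the cluster, had 13, 1 and 5 reads in fl/fl and 21, 9 and 29 reads in Δ/Δ libraries, with overlap (log2 fold change 1.75, SE 0.76, edgeR adjusted p = 0.267). Fcer2a, the low-affinity IgE receptor CD23, had 10, 31 and 33 against 15, 24 and 6 reads (log2 fold change -0.56, SE 0.64, edgeR adjusted p = 0.676). Neither of these relatives passed the test.

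Within 500 kb of the members the annotation listed 59 other genes, of which 19 had no read and 28 were tested. Of these, 1 (3.57%) was called, beside 1.86% of all tested genes. It was Lrrc8e, a subunit of volume-regulated anion channels, with no read in fl/fl and 18, 18 and 25 reads in Δ/Δ libraries. At 0.890 ± 0.191 CPM it was at least 22.7-fold higher than the limit of 3 reads pooled over the fl/fl libraries (edgeR adjusted p = 0.0168). Leaving out fl/fl 1, fl/fl 2 or Δ/Δ 3 ended the call (edgeR adjusted p = 0.0683, 0.0670 and 0.0539). Between the members themselves lay 3 further genes with 1 read in total. The median log2 fold change of the 28 neighbours was 0.17, against 0.0018 over all tested genes and 2.25 to 4.35 in the members with reads. DESeq2's Wald test also called Gm16553 (edgeR log2 fold change 1.54, adjusted p = 0.122) and Prr36 (edgeR log2 fold change 2.22, adjusted p = 0.0604). Both were higher in every Δ/Δ library than in any fl/fl library, as were 13.7% of all tested genes, and edgeR called 0 neighbours lower. Pnpla6, Fcor and Trappc5 also lay higher without overlap (log2 fold changes 0.26, 0.69 and 0.55). Pex11g, Zfp358, Pet100 and Tgfbr3l lay lower without overlap (-0.67, -0.39, -0.10 and -0.42). Differences without overlap thus went both ways among the neighbours.

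**Figure D3:**
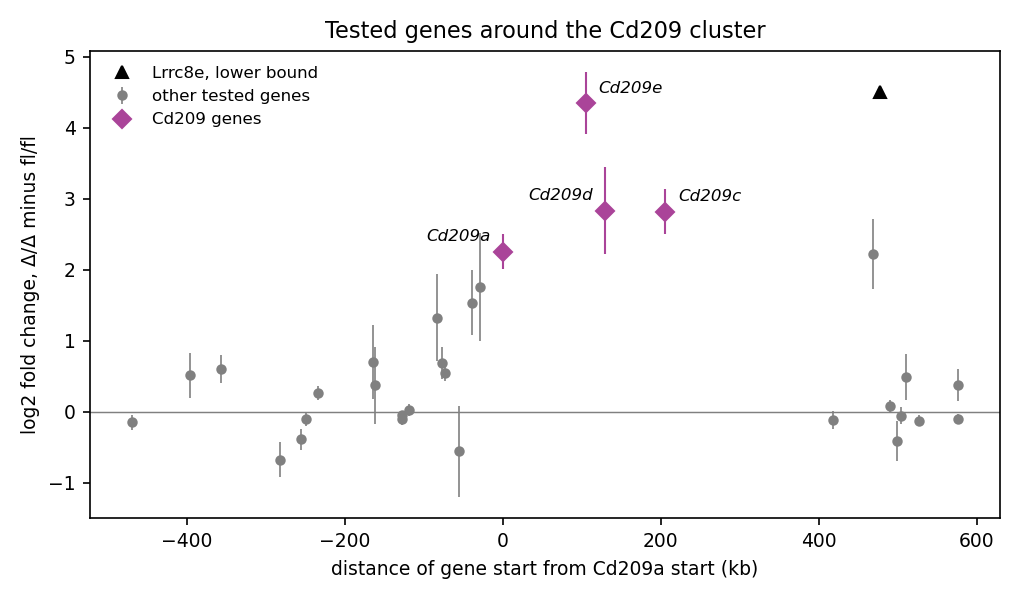
Log2 fold change (Δ/Δ minus fl/fl, points with standard errors) of tested genes against the distance of their start from that of Cd209a in kb; diamonds are Cd209 genes, grey points other tested genes, and the triangle is the lower bound for Lrrc8e, which has no fl/fl read. The Cd209 genes lie at 2.25 to 4.35, and the median of the 28 neighbours is 0.17.

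Human DC-SIGN signals through a complex on LSP1 to NF-kappaB, while related lectins use Fc receptor gamma chain, SYK and CARD9. Of all tested genes, 19.4% had an unadjusted edgeR p under 0.05 and 1.86% were called, which are the shares against which the lists of other genes stand. Of 16 genes of these routes, 14 were tested and 0 were called by edgeR, DESeq2 or limma-voom, with 3 at an unadjusted edgeR p under 0.05 and a median log2 fold change of 0.04. By adjusted p alone, which 3.88% of all tested genes passed, Fcer1g, the gamma chain, was higher at 93.4 to 100 CPM in Δ/Δ against 65.9 to 69.5 CPM in fl/fl libraries (log2 fold change 0.53, SE 0.06, edgeR adjusted p = 0.00556). Cyld, a deubiquitinase, was lower at 137 to 160 against 189 to 192 CPM (log2 fold change -0.37, SE 0.07, edgeR adjusted p = 0.0315). The kinase Syk overlapped between the genotypes, at 219 to 294 CPM in Δ/Δ against 216 to 256 CPM in fl/fl libraries. Card9 was higher without overlap, at 61.8 to 74.7 CPM in Δ/Δ against 44.4 to 51.3 CPM in fl/fl libraries (log2 fold change 0.45, SE 0.10, edgeR adjusted p = 0.0588).

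Of the cytokine genes tied to DC-SIGN signals, Il10, Il6, Il12a and Il12b, 2 were tested and 0 were called by edgeR, DESeq2 or limma-voom on all 6 libraries, with 0 at an unadjusted edgeR p under 0.05. Il12b ranged from 4.26 to 122 CPM among the Δ/Δ libraries and from 35.4 to 51.7 CPM in fl/fl, and it was called without Δ/Δ 2. Of 6 genes for ligands and for the fucosyltransferases that build Lewis-type sugars, 5 were tested and 0 were called by edgeR, DESeq2 or limma-voom, with 2 (Itgam and Fut7) at an unadjusted edgeR p under 0.05. Fut9 was without reads in all libraries.

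Genes whose pattern over the 6 libraries came nearest to each of the 3 called members were sought by the root mean square difference of centred log2 CPM, over 12880 named tested genes. Nearest to Cd209a was Cd4, a surface marker of part of the cDC2s, at a distance of 0.197 log2 units, with 16, 21 and 41 reads in fl/fl and 98, 145 and 106 reads in Δ/Δ libraries. Lzts1, Gm13410, Eif3s6-ps2 and Adgrg5 followed at 0.210, 0.234, 0.253 and 0.253. Nearest to Cd209c were St6galnac2, a sialyltransferase, at 0.235, then Lzts1, Dpp6, Eif3s6-ps2 and Plaur, the urokinase receptor, at 0.286 to 0.355.

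Nearest to Cd209e were Eno1b at 0.265, Wls, the carrier that brings Wnt proteins to the cell surface, at 0.279, Gm10036 at 0.436, Kcnk10 at 0.468 and Sun3 at 0.492. Wls had 226, 251 and 337 reads in fl/fl and 3008, 4926 and 4423 in Δ/Δ libraries, the order that Cd209e also had. Gm13410, Eif3s6-ps2 and Gm10036 are processed pseudogenes and Eno1b is a near copy of an enolase gene, so their reads are uncertain. St6galnac2, Dpp6, Sun3, Gm13410 and Eif3s6-ps2 had at most 6 reads in any fl/fl library. The members were not all near to each other. From Cd209a, Cd209c was at rank 18 (0.370), Cd209d at rank 206 (0.716) and Cd209e at rank 2013 (1.08). From Cd209c, Cd209a was at rank 7, Cd209d at rank 117 and Cd209e at rank 182, and from Cd209e, Cd209d, Cd209c and Cd209a were at ranks 27, 33 and 49. With a prior count of 0.5 in place of 2, Dpp6 went from rank 3 to 392 for Cd209c and Eif3s6-ps2 from rank 4 to 10 for Cd209a. These distances compare 6 shared libraries and were not tested. The libraries span the contrast that picked the members, so a distance between members also reflects how their fold changes differ.

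**Figure D4:**
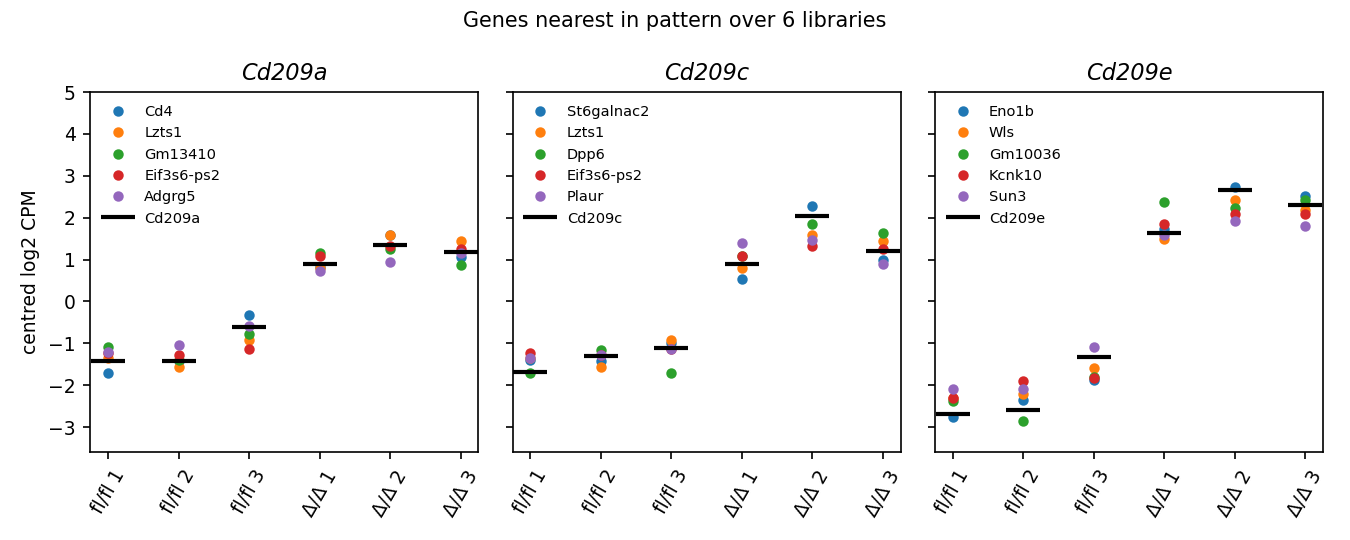
Log2 CPM centred on each gene's mean over 6 libraries, for Cd209a, Cd209c and Cd209e (black bars) and the 5 genes nearest to each in pattern (coloured points). In each panel the points follow the bars from negative values in the fl/fl to positive values in the Δ/Δ libraries, since the genes were picked for this likeness.

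Markers of the sorted cell type and of other cells were set beside the members. All 12 cDC1 markers were tested, and their summed level was 10123 to 10226 CPM in fl/fl against 8175 to 9421 CPM in Δ/Δ libraries. Xcr1, the chemokine receptor of cDC1s, was called lower, at 122 to 201 against 421 to 475 CPM (log2 fold change -1.42, SE 0.17, edgeR adjusted p = 0.00812). Tlr3, Snx22, Rab7b and Ifi205 were lower by edgeR adjusted p alone, at -0.77, -0.86, -0.39 and -0.60 on the log2 scale. In the fit 4 of the 12 were higher, Cadm1, Itgae, Irf8 and Batf3 (log2 fold changes 0.32, 1.10, 0.04 and 0.09). Of these only Cadm1 did not overlap, at 266 to 305 CPM in Δ/Δ against 213 to 231 CPM in fl/fl libraries (edgeR adjusted p = 0.0615). Itgae was at 892 CPM in Δ/Δ 2. In Δ/Δ 1 and 3 it was at 201 and 229 CPM, inside the fl/fl range of 151 to 258 CPM. Wdfy4 and Cd24a, the latter for the CD24 used in the sort, were lower without overlap (log2 fold changes -0.28 and -0.30). Most of the summed cDC1 level was Wdfy4 and Irf8 (3692 and 2712 CPM on average in fl/fl). Of 10 cDC2 markers, which include genes of the cells known for Cd209a, Cd4 was called higher (log2 fold change 2.30, SE 0.43, edgeR adjusted p = 0.0339), and Klf4 was higher by adjusted p alone (log2 fold change 0.97, edgeR adjusted p = 0.0321). DESeq2 also called Irf4 (edgeR log2 fold change 1.26, adjusted p = 0.0699). In all, 7 of the 10 were higher in the fit, and Sirpa, Esam and Notch2 were lower with overlap (log2 fold changes -0.21, -0.16 and -0.06). Sirpa encodes CD172a, which cells of both groups had to lack to be sorted. Mgl2 and Clec10a overlapped as well (0.71 and 0.52). Among the fl/fl libraries both were highest in fl/fl 3, at 164 and 1596 reads. The summed cDC2 level overlapped at 986 to 1191 and 1070 to 1433 CPM, most of it Notch2 (861 CPM on average in fl/fl). Of 10 pDC markers Ccr9 was called higher, at 52.0 to 69.9 against 20.8 to 24.0 CPM (log2 fold change 1.41, SE 0.12, edgeR adjusted p = 0.00333), with sums of 247 to 266 and 266 to 318 CPM, and DESeq2 also called Siglech (edgeR log2 fold change 1.44, adjusted p = 0.0571). Of the 8 tested, 6 were higher in the fit. Bst2 was lower without overlap, at 70.5 to 79.0 CPM in Δ/Δ against 89.1 to 109 CPM in fl/fl libraries (log2 fold change -0.41, edgeR adjusted p = 0.0572).

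Of 10 monocyte and macrophage markers 7 were tested and 0 were called by edgeR, DESeq2 or limma-voom, with 3 at an unadjusted edgeR p under 0.05, but their summed level did not overlap, at 2450 to 2871 CPM in the fl/fl libraries against 3466 to 4312 CPM in the Δ/Δ libraries. Most of it was Lyz2 and Ccr2, and Ccr2 (log2 fold change 0.96, SE 0.13, edgeR adjusted p = 0.0130) and Adgre1 (log2 fold change 0.91, SE 0.17, edgeR adjusted p = 0.0317) were higher by adjusted p alone. Of the 7 tested, 5 were higher in the fit, and Ly6c2 and Fcgr1 were lower with overlap (log2 fold changes -0.45 and -0.36). C5ar1, a receptor gene of macrophages, was at 0 to 0.0771 CPM over all libraries. The 8 markers of marginal zone and tissue macrophages, the cells known for Cd209b and Cd209d, summed to 3.74 to 5.98 CPM in fl/fl against 4.02 to 18.3 CPM in Δ/Δ libraries, with Clec4f at 0. Of these, 3 were tested (Cd5l, Spic and Timd4), each at an unadjusted edgeR p under 0.05 and 0 called by edgeR or limma-voom. Their log2 fold changes were -2.13 for Cd5l, -2.30 for Spic and 1.90 for Timd4, and DESeq2 called Timd4. Median log2 fold changes were -0.29 for the cDC1, 0.82 for the cDC2, 0.11 for the pDC, 0.32 for the monocyte and macrophage and -2.13 for the tissue macrophage markers tested.

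In Δ/Δ 2, the library highest for all 4 members, the summed markers of several other cells were also at their highest. There, basophil and mast cell markers (6 genes) summed to 16.8 CPM, B cell markers (7 genes) to 50.0 CPM and tissue macrophage markers to 18.3 CPM. Of the last sum, 16.9 CPM was Timd4. Cd5l and Spic, at 0.513 and 0.607 CPM in Δ/Δ 2, lay below every fl/fl library (0.630 to 1.35 and 0.891 to 1.93 CPM). In the other 5 libraries the basophil and mast cell sum was 0.463 to 2.47 CPM and the B cell sum 13.1 to 31.0 CPM. The cDC2, pDC and monocyte and macrophage sums were instead highest in Δ/Δ 3, at 1433, 318 and 4312 CPM. In Δ/Δ 2 these sums were 1160, 308 and 3466 CPM, and the last was the lowest among the Δ/Δ libraries. Neutrophil markers (8 genes, Ly6g and Elane at 0) summed to 4.20 to 17.6 CPM in fl/fl against 0.852 to 7.42 CPM in Δ/Δ libraries, and T and NK cell markers (7 genes) to 0.964 to 1.08 and 0.649 to 1.06 CPM. The 10 tested genes of these 4 lists (B cell, neutrophil, T and NK cell, basophil and mast cell) held 0 calls by edgeR, with Ngp at an unadjusted p under 0.05 and called by DESeq2. Of the 6 basophil and mast cell genes only 1 was tested. Mcpt8, Prss34 and Cpa3 were not tested and lay higher without overlap. They had 103, 118 and 51 reads in Δ/Δ 2, against 0 to 4, 0 to 6 and 0 to 3 reads in fl/fl libraries. Without Δ/Δ 2 the members' log2 fold changes were 2.15 for Cd209a, 2.41 for Cd209c, 2.63 for Cd209d and 4.09 for Cd209e. Leaving out 1 library does not show what part other cells have in the members' levels, and that part was not tested.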

How the data were processed

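RNA of 6 libraries of sorted cDC1s (3 fl/fl, 3 Δ/Δ) was analysed. The authors aligned paired 75-base reads to mm10 (GRCm38) with STAR 2.6.1a and Gencode vM19, and deposited the raw counts of uniquely mapped reads per gene, without normalization or pooling. Reads that fit several places were lost before deposit, and the strand column used was not given in the sources used here. Of all reads, 20.3 to 20.9% lay outside single genes and stayed out of library sizes. Identifiers were matched without their version to GENCODE M21 (54495 of 54532) for names and coordinates. CPM used TMM factors (0.989 to 1.01).

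edgeR 4.0.16 in R 4.3.3 (filterByExpr, minimum count 10, minimum total 15, quasi-likelihood test on genotype, Benjamini-Hochberg) tested 12894 genes. Log2 CPM for patterns used a prior count of 2. Alternatives were DESeq2 1.42.0, its size factors, limma-voom (limma 3.58.1), other filters, each library left out, a replicate term, a wider window and shares per kb. Coding sequences were aligned with mafft 7.526. Fits were tested on simulated data. The members, gene lists and the rule for naming genes were chosen with earlier results of these data known. Named were the members and their relatives, called neighbours, called list genes, defining markers at 0, the 5 genes nearest in pattern to 3 members, Jun and Junb. Other list genes named (Fcer1g, Cyld, Syk, Card9, Il12b, Lyz2, Ccr2, Adgre1, C5ar1, Itgam, Fut7, Cd5l, Spic, Timd4, Ngp, Mcpt8, Prss34 and Cpa3, and Tlr3, Snx22, Rab7b, Ifi205, Cd24a, Klf4, Irf4, Notch2 and Siglech) were chosen after their values were seen. So were Cadm1, Itgae, Irf8, Batf3, Wdfy4, Bst2, Sirpa, Esam, Mgl2, Clec10a, Ly6c2 and Fcgr1, and the neighbours Gm16553, Prr36, Pnpla6, Fcor, Trappc5, Pex11g, Zfp358, Pet100 and Tgfbr3l. Chi-square per degree of freedom between libraries of a genotype was 6.35 to 38.5, so no library was a repeat. The labels do not say whether replicates were separate mice, though the study's legends describe its RNA-Seq points as individual animals, and p-values measure only the spread between these samples. Cd209h and protein sequences were not analysed here. Some genes of the lists are not reported here.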

Additional observations from a re-analysis of the deposited data

How the results depend on the processing

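Under the 12 alternatives the log2 fold changes were 2.11 to 2.58 for Cd209a and 2.41 to 3.04 for Cd209c. They were 2.36 to 3.61 for Cd209d and 4.09 to 4.92 for Cd209e. Each member with reads was higher in every Δ/Δ library, so leaving 1 library out could not change the sign. Between 2 and 4 members were called, beside 1.86% of all tested genes in the fit to all 6 libraries. The members were picked by this contrast. The number of genes called, 240, was 385 with DESeq2's Wald test, 500 by adjusted p alone and 74 to 579 with 1 library left out, where fl/fl 1 (74), fl/fl 2 (80), fl/fl 3 (154), Δ/Δ 1 (579) and Δ/Δ 2 (370) mattered most. Other-cell markers called, 2 in all, were 6 with DESeq2's Wald test and 1 to 10 with 1 library left out (10 on leaving out Δ/Δ 1, 6 for Δ/Δ 2, and 1 each for Δ/Δ 3, fl/fl 1 and fl/fl 2). Genes around the cluster, with 1 called, gave 3 with DESeq2's Wald test (Gm16553, Prr36 and Lrrc8e), 2 within 1000 kb and 0 to 2 with 1 library left out (0 on leaving out Δ/Δ 3, fl/fl 1 or fl/fl 2, and 2 for fl/fl 3). Genes of the DC-SIGN lists called were 0 to 1 with 1 library left out (Il12b without Δ/Δ 2). Shares per kb were 73.6% for Cd209a in fl/fl, and 3.23% in fl/fl and 3.75% in Δ/Δ cDC1s for Cd209d. The causes were not tested.

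Replicate numbers gave no clear sign of pairing. Same-numbered libraries correlated at 0.0910, -0.148 and 0.200 in their deviations from the genotype means, and different-numbered ones at -0.221 to 0.152. So few libraries cannot show whether same-numbered samples shared a batch. With the number as a replicate block, 0 genes around the cluster, 4 other-cell markers and 3 members were called. Lrrc8e then had an edgeR adjusted p of 0.0715, in a range of 6.0e-05 to 0.0715 over its alternatives. Cd209d had 9 reads in fl/fl 2, and Cd209b had 0 reads in every library.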
